A study of Mus musculus with 31 samples.

Results

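The genotype by insulin interaction in liver is the difference between what insulin did to each transcript in wild-type (WT) liver and what it did in liver without the nuclear receptor ERRα. Its members are the 15 livers whose counts stand in the table of the insulin experiment, of 31 samples in the series. The livers came from WT mice and ERRα-/- littermates on the C57BL/6N background, given by the study's methods as males of 2 to 3 months kept on standard chow. Mice fasted for 12 h received saline or insulin at 1 unit per kg into the peritoneum, and livers were taken 4 h later at zeitgeber time 6 h. RNA was sequenced from 4 WT saline, 4 WT insulin, 4 ERRα-/- saline and 3 ERRα-/- insulin livers, whose replicate numbers are 1, 2 and 4. The null mice lacked the receptor in all tissues, so a difference between genotypes is not limited to what the receptor does in the hepatocyte.

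ERRα, encoded by Esrra, is an orphan nuclear receptor that works with PGC-1 coactivators to drive genes of the respiratory chain, the tricarboxylic acid (TCA) cycle and other parts of mitochondrial metabolism. In liver, insulin acts through AKT and mTORC1 to stop FoxO-driven gluconeogenic transcription and to favour glycogen storage, lipid synthesis, translation and ribosome production. The comparison asks which of the transcript changes after insulin depended on the receptor, in either direction, and which appeared in the absence of it.

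The genotype labels were checked on Esrra itself (ENSMUSG00000024955, chromosome 19, 6910977 to 6921813, GRCm38). Esrra was at 32.3, 51.3, 42.7 and 40.5 CPM (counts scaled to library size) with saline and 53.7, 96.5, 56.1 and 59.0 CPM with insulin in WT livers, and at 1.63, 0.703, 1.15 and 1.04 CPM (saline) and 0.833, 0.576 and 0.298 CPM (insulin) in ERRα-/- livers. Values are listed in the order of the replicate numbers here and for each gene described later. Each WT liver lay far above each ERRα-/- liver, and in WT all 4 insulin livers were above all 4 saline livers, with replicate 2 the highest. Hepatocyte markers were high in all 15 livers: 11 listed genes that could be tested summed to between 106561 and 144188 CPM, Alb was the most abundant of them, and 0 of the 11 were called for the interaction. Total counts ran from 35871419 to 48317108 per liver.

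Some libraries stood apart. WT insulin replicate 2 had 1.88% of its counts on genes of the mitochondrial genome, against 3.14 to 4.82% in the other 14, and 14507 genes with a count, against 15169 to 16925. Its mean correlation with the other livers across genes was 0.941, against 0.951 to 0.963. Transcripts of exocrine pancreas (11 of 12 listed genes tested, Ctrb1 the most abundant, Amy2a5 at 0 in all livers) summed to 1778 CPM in WT saline replicate 1 and 2353 CPM in WT saline replicate 4, and to between 4.04 and 390 CPM elsewhere (389.9 in ERRα-/- saline replicate 1). Skeletal muscle transcripts, mainly Myh1, summed to 108 CPM in WT insulin replicate 3 and to at most 9.08 CPM in the other livers. None of the tested markers of pancreas (11) or muscle (7) was called, although their medians were 2.21 and 1.90. The part of these markers in the results below was not tested.

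Exonic length moved with the interaction. Genes were put into 10 bins of like size by exonic length. In the bin of the shortest genes the median difference in insulin effect (WT minus ERRα-/-) was 0.31 on the log2 scale, and it fell in steps to −0.22 in the bin of the longest. Genes called with a positive difference, at the threshold given below, had a median exonic length of 2813 bases. Those called with a negative one had 6985 bases, against 4192 bases over 14589 tested genes with a known length. In single livers, the shortest bin minus the longest bin, as a median deviation from the mean of all livers, was −0.04, −0.31, −0.12 and −0.02 in WT saline and 0.12, 0.66, −0.12 and 0.17 in WT insulin. In ERRα-/- it was 0, 0, 0.09 and 0.24 with saline and −0.03, −0.23 and 0.01 with insulin. The value of 0.66 belongs to WT insulin replicate 2, and without that library the medians of the outer bins were 0.22 and −0.14. An alternative in which a trend over exonic length was removed from each library brought them to 0.07 and 0.02. That alternative was chosen after the data were seen, and because many short transcripts encode ribosomal and respiratory chain proteins, the length trend and a change of such proteins cannot be told apart for those groups. The figure of gene lists therefore gives the median of each list with and without the trend, and a paragraph near the end gives the difference with the trend removed for genes described liver by liver.

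**Figure D1:**
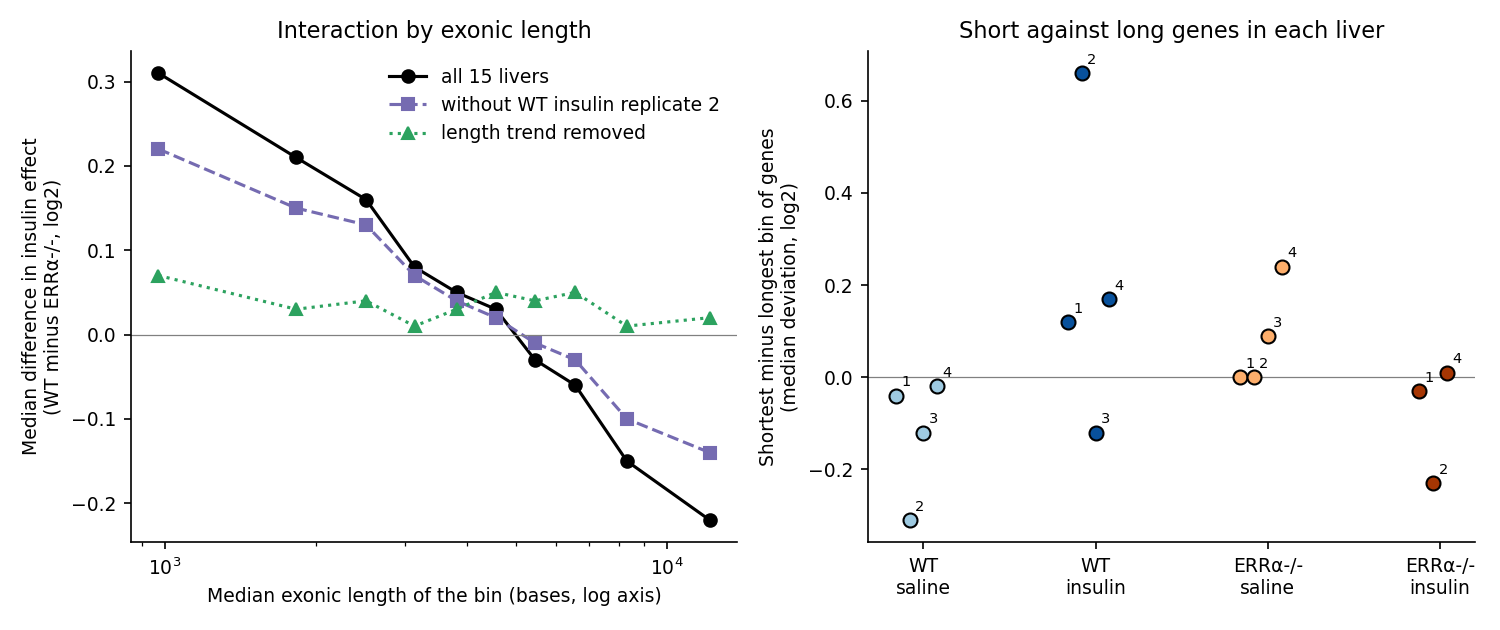
Left, median difference in insulin effect (WT minus ERRα-/-, log2) in 10 bins of genes ordered by exonic length (bases, log axis), for all 15 livers, without WT insulin replicate 2, and with the length trend removed, running from 0.31 to −0.22 with all livers and from 0.07 to 0.02 with the trend removed. Right, the shortest bin minus the longest bin (median deviation, log2) in each liver, numbered by replicate, where WT insulin replicate 2 is the highest at 0.66.

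Differences in the insulin response were called in both directions, at an unadjusted threshold. Of 25 genes of respiratory complexes II to IV, 10 were called positive with all livers, 5 with the length trend removed and 4 without ERRα-/- insulin replicate 2. The gluconeogenic gene Pck1, the FoxO factor Foxo3 and the bile acid genes Abcc2 and Nr5a2 were called negative. Of 14670 genes tested with edgeR, 1289 (8.79%) had an unadjusted p under 0.05 and a difference of at least 1.2 fold, the call used throughout: 697 positive (4.75%) and 592 negative (4.04%). A positive difference means that insulin raised a transcript more, or lowered it less, in WT than in ERRα-/- liver. After adjustment over all genes 0 of the 1289 had p under 0.05 by edgeR, with a smallest adjusted p of 0.389. DESeq2 called 1413 genes and gave 20 with an adjusted p under 0.05, the smallest 0.00125. It was fitted to all genes with a count, without the filter on low counts, so the gene sets differ. With no filter edgeR called 1721. At an unadjusted p under 0.01, edgeR called 295 genes (2.01%), 154 positive and 141 negative. With no interaction in any gene, shares of about 0.05 and 0.01 of the tested genes would still pass these p thresholds. A large part of the calls can therefore be false, and which ones cannot be told. All 1289 genes with an unadjusted p under 0.05 also met 1.2 fold, so the fold condition removed no gene. The balance of directions depended on scaling: upper quartile factors gave 851 positive and 461 negative genes, 64.9% positive in place of 54.1%, while the median over all genes shifted by 0.04. Of the 1289, 483 (255 positive, 228 negative) were called in each of the 15 fits that leave out 1 liver. Without ERRα-/- insulin replicate 2 the negative genes numbered 390, the lowest over the leave-one-out fits, and without WT insulin replicate 3 they numbered 775.

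The insulin effect itself was called for 2826 genes in WT liver, 1397 higher (9.52%) and 1429 lower (9.74%), and for 2033 in ERRα-/- liver, 965 higher (6.58%) and 1068 lower (7.28%). At an adjusted p under 0.05 these were 766 and 262 genes. ERRα-/- insulin had 3 livers and the other groups 4, so the power was not equal, and it is the difference that tests dependence on genotype. By the calls of both effects the 1289 interaction genes fall into 5 classes. In 578 insulin was called in WT alone: 310 rose there (median 0.50, against −0.14 in ERRα-/-) and 268 fell (median −0.53, against 0.07). In 369 it was called in ERRα-/- alone: 191 fell there (median −0.79, against 0.11 in WT) and 178 rose (median 0.55, against −0.09). A further 32 were called in opposite directions, 14 up in WT and down in ERRα-/- and 18 the reverse. Insulin acted in the same direction with unequal size on 46 genes, and for 264 neither effect alone was called. With saline, 268 of the 697 positive genes were called higher in ERRα-/- than in WT and 13 lower (799 and 662 of all 14670). With insulin 1 was higher and 280 lower (818 and 863 of all). Of the 592 negative genes, 0 were higher and 153 lower with saline, and 324 higher and 0 lower with insulin. The interaction is built from these genotype differences, so the counts describe where it lies and test nothing further. The ERRα-/- class held 235 genes without ERRα-/- insulin replicate 2. The opposite class held 20 without that library, 17 without ERRα-/- saline replicate 4, 20 without WT insulin replicate 4 and 18 without WT saline replicate 2.

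With the length trend removed, edgeR called 1094 genes, 651 positive (4.44%) and 443 negative (3.02%), with a smallest adjusted p of 0.525. Of the positive genes 486 (69.7%) and of the negative genes 354 (59.8%) were called again. The median exonic lengths of the positive and negative calls were then 4518 and 4481 bases. By class, 379 of the 578 WT genes, 255 of the 369 ERRα-/- genes and 31 of the 32 opposite genes were called again. Without WT insulin replicate 2 there were 1216 calls, 668 positive and 548 negative, which included 71% of the positive and 73.3% of the negative genes. With that library left out and the length trend removed, 57.5% of the positive and 53% of the negative genes were called again.

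**Figure D2:**
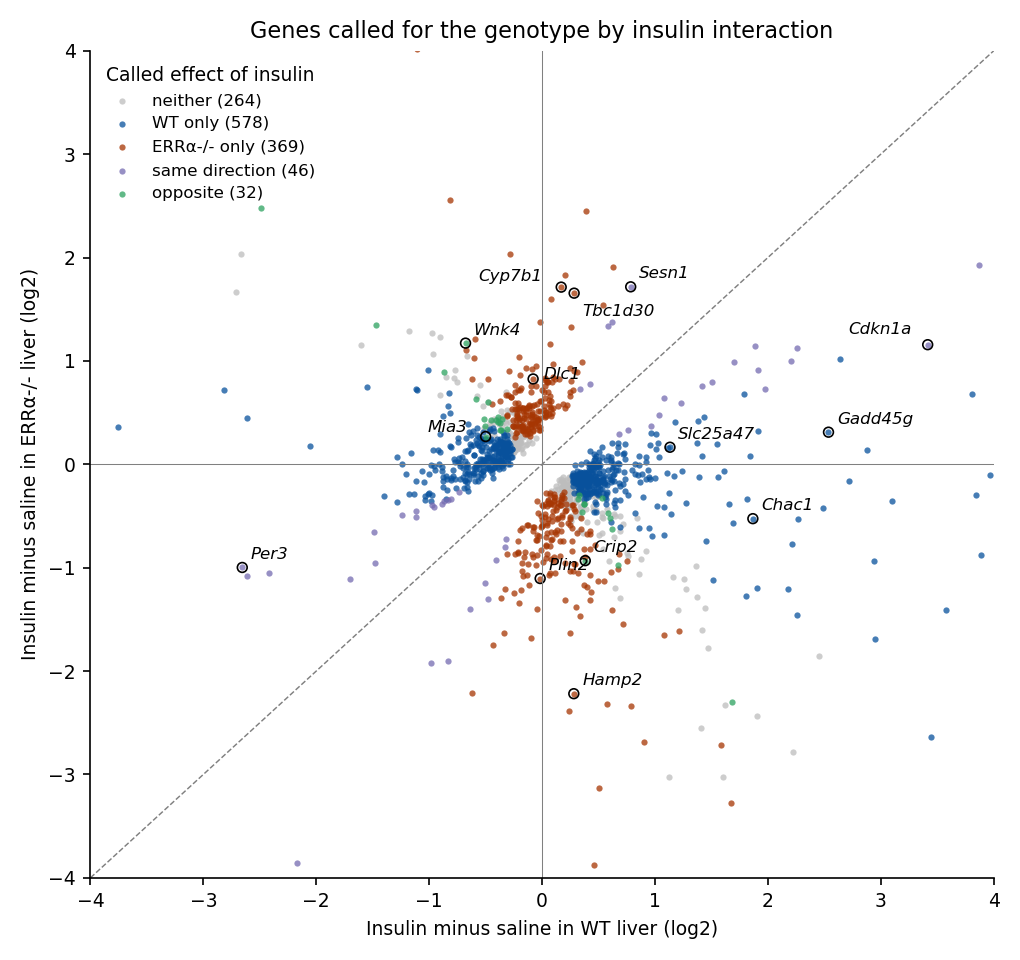
Insulin effect in WT liver (horizontal, log2) against that in ERRα-/- liver (vertical, log2) for the 1289 interaction genes, coloured by the genotype in which insulin was called; the dashed line marks equal effects and 48 genes lie beyond the axes. Genes called in WT alone (578) lie along the horizontal axis and genes called in ERRα-/- alone (369) along the vertical one.

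Among named genes with a positive difference, insulin raised a mitochondrial carrier, a ribosomal protein and factors of iron-sulfur assembly and membrane fusion in WT livers. No rise was called for them in ERRα-/- livers. With saline, ERRα-/- minus WT was already 0.56 for the carrier Slc25a47 and 0.55 for the ribosomal protein Rpl36 (log2). With insulin it was −0.41 and −0.20. For Ciao2a it was −0.05 with saline and −0.91 with insulin. The lowest p belonged to Crip2, a LIM-domain protein (ENSMUSG00000006356, chromosome 12, 113140236 to 113145506). Crip2 was at 28.5, 30.7, 31.4 and 30.8 CPM with saline and 37.2, 34.2, 35.3 and 51.8 CPM with insulin in WT livers, and at 43.8, 35.4, 47.4 and 61.0 CPM (saline) and 28.2, 23.3 and 22.3 CPM (insulin) in ERRα-/- livers. Insulin livers lay above saline livers in WT and below them in ERRα-/-, with no overlap in either genotype. Crip2 rose by 0.38 (SE 0.16) on the log2 scale in WT, its effect in ERRα-/- was −0.93 (SE 0.18), and the difference was 1.31 (SE 0.24, unadjusted p = 3.68e-05), the adjusted p being 0.389. Slc25a47, a mitochondrial carrier found mainly in liver (ENSMUSG00000048856, chromosome 12, 108836046 to 108856815), was at 739, 599, 643 and 495 CPM in WT saline and 1158, 1410.0, 1446 and 1415 CPM in WT insulin livers. With ERRα absent, Slc25a47 stood at 962, 960.4, 697 and 1025 CPM after saline and 1020.4, 837 and 1207 CPM after insulin. The WT insulin livers lay above the WT saline livers without overlap, whereas the ERRα-/- groups overlapped. The effects of 1.13 (SE 0.16) in WT and 0.16 (SE 0.17) in ERRα-/- differed by 0.97 (SE 0.23, unadjusted p = 0.000585). Rpl36, a protein of the large ribosomal subunit (ENSMUSG00000057863, chromosome 17, 56613416 to 56614243), was at 39.6, 36.4, 40.7 and 43.8 CPM (saline) and 52.2, 69.2, 51.6 and 56.5 CPM (insulin) in WT livers, and at 56.2, 55.3, 60.3 and 62.8 CPM (saline) and 52.5, 44.0 and 52.9 CPM (insulin) in ERRα-/- livers. Its groups did not overlap in either genotype, with insulin livers higher in WT and lower in ERRα-/-. Rpl36 differed by 0.75 (SE 0.17, unadjusted p = 0.000305), and by 0.50 with the length trend removed. Bet1l, a Golgi SNARE, Sf3b5, of the SF3B splicing complex, Ciao2a, of cytosolic iron-sulfur assembly, and the lysosomal sulfatase Arsg differed by 1.06, 0.86, 0.86 and 0.86.

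Of the 8 negative genes named by lowest p, insulin lowered 5 in WT livers (Stk35, Mia3, Bicral, Sertad2 and Dapk1) and raised 3 in ERRα-/- livers alone (Dlc1, Zfp609 and Tbc1d30); without WT saline replicate 2 the rise of Tbc1d30 was called in WT as well. Stk35, a protein kinase (ENSMUSG00000037885, chromosome 2, 129800517 to 129832287), was at 27.5, 26.0, 21.8 and 28.2 CPM with saline and 17.96, 15.6, 19.4 and 16.2 CPM with insulin in WT livers, and at 21.4, 20.3, 19.1 and 19.4 CPM (saline) and 22.5, 22.5 and 24.1 CPM (insulin) in ERRα-/- livers. Insulin livers were lower in WT and higher in ERRα-/-, with no overlap within either genotype. Stk35 fell in WT with an effect of −0.58 (SE 0.11), the ERRα-/- effect of 0.20 (SE 0.12) was not called, and the difference was −0.78 (SE 0.17, unadjusted p = 0.000198). Bicral, a subunit of a BAF chromatin remodelling complex (ENSMUSG00000036568, chromosome 17, 46798120 to 46858482), was at 26.6, 26.7, 24.0 and 25.6 CPM in WT saline and 12.6, 9.05, 17.5 and 15.2 CPM in WT insulin livers, against 22.8, 22.3, 23.2 and 16.8 CPM (saline) and 24.0, 21.7 and 24.4 CPM (insulin) in the ERRα-/- groups. All WT insulin livers were below all WT saline livers, while the ERRα-/- groups overlapped. The effect on Bicral was −0.92 (SE 0.17) in WT and 0.14 (SE 0.18) in ERRα-/-, a difference of −1.06 (SE 0.24, unadjusted p = 0.000408). Mia3, also called TANGO1, which helps large cargo such as procollagen leave the endoplasmic reticulum (ENSMUSG00000056050, chromosome 1, 183326725 to 183369553), was at 379.6, 393, 401 and 392 CPM after saline and 333, 233, 276 and 265 CPM after insulin in WT livers, and at 320.3, 324, 274 and 256 CPM (saline) and 363, 371 and 328 CPM (insulin) in ERRα-/- livers. The insulin livers were lower in WT and higher in ERRα-/-, without overlap. Mia3 was called in both genotypes, with effects of −0.50 (SE 0.12) and 0.27 (SE 0.13), and the difference was −0.77 (SE 0.17, unadjusted p = 0.00036). Dapk1, a death-associated protein kinase, differed by −0.79.

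**Figure D3:**
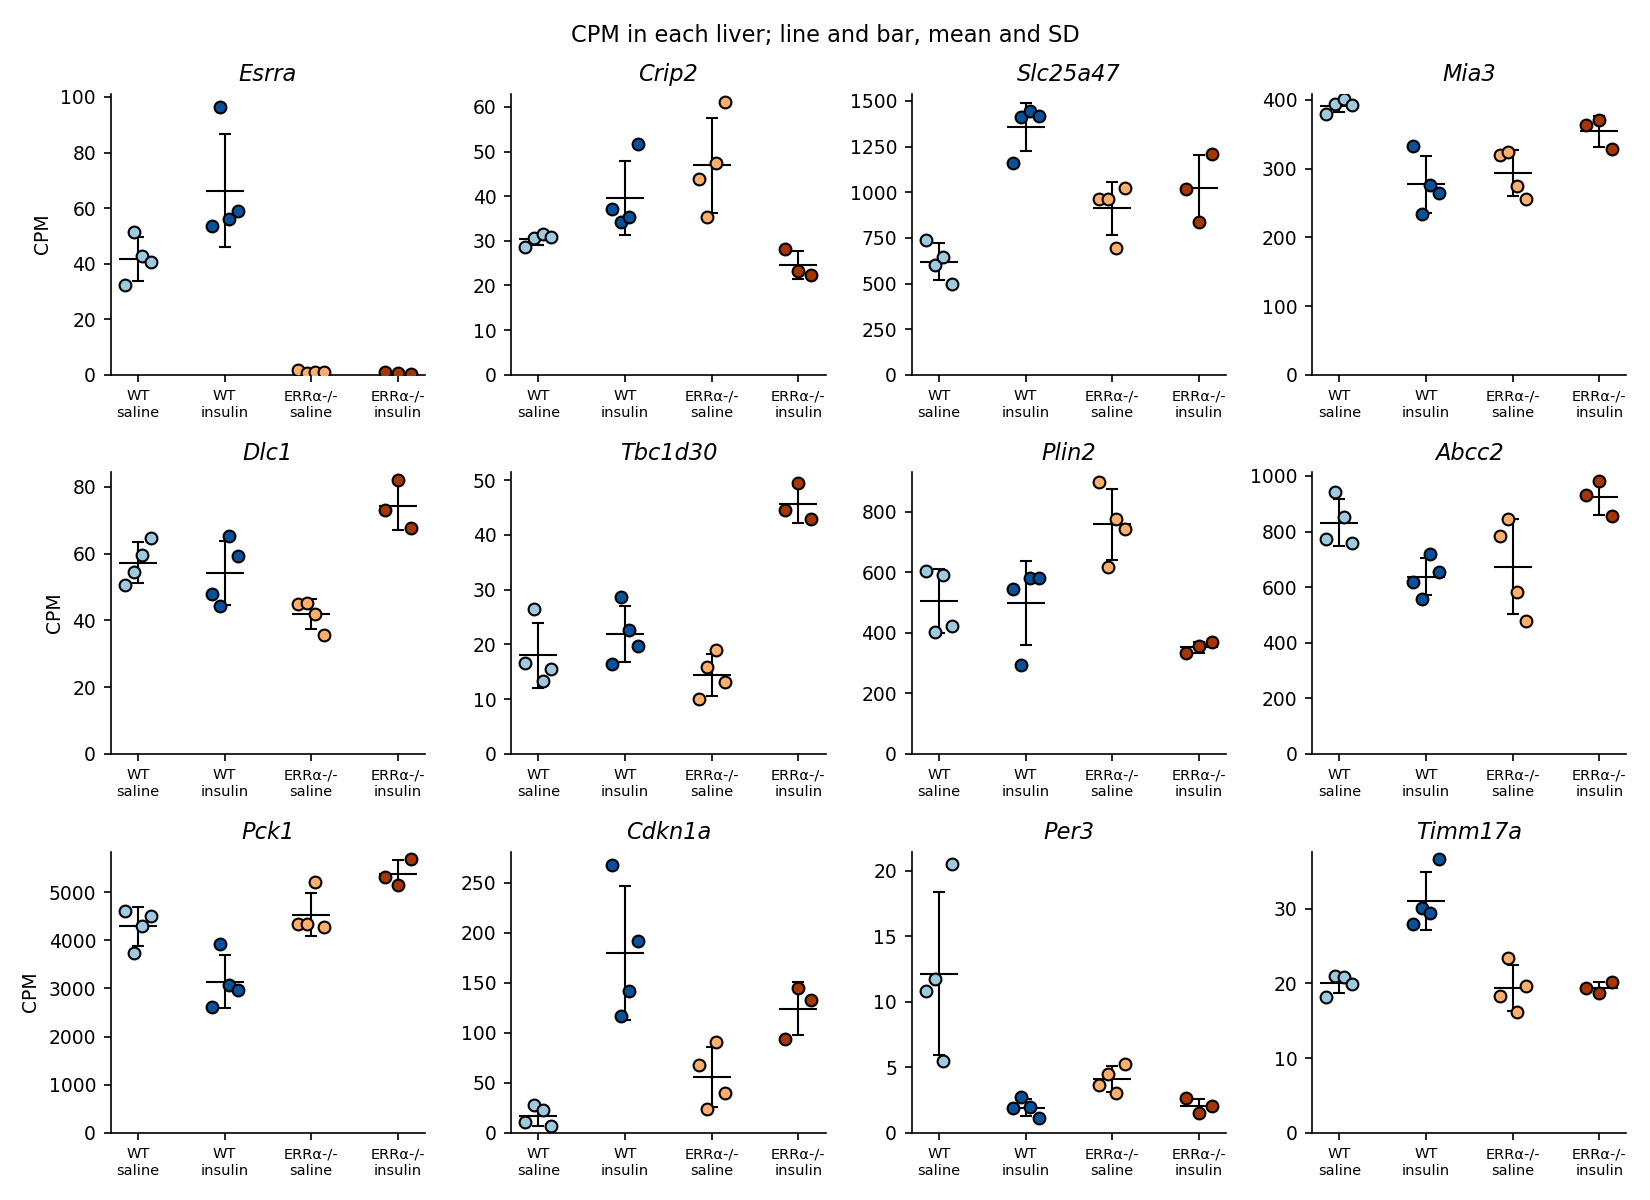
CPM in each liver for 12 genes in the 4 groups (points, livers; line and bar, mean and SD; vertical axes start at 0). Crip2 lies between 28.5 and 31.4 CPM in WT saline livers and between 34.2 and 51.8 CPM in WT insulin livers, and between 22.3 and 28.2 CPM in ERRα-/- insulin livers.

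Responses called in ERRα-/- liver alone were of both kinds. Among those that insulin raised, Tbc1d30, a GTPase-activating protein for Rab proteins, Dlc1, named for its deletion in liver cancer, and Zfp609, a zinc finger protein, led the list; among those it lowered were Plin2, Pxdc1, Slc1a4 and Srsf3. Tbc1d30 (ENSMUSG00000052302, chromosome 10, 121263820 to 121351278) was at 16.6, 26.5, 13.3 and 15.4 CPM with saline and 16.4, 28.6, 22.6 and 19.8 CPM with insulin in WT livers, and at 9.95, 15.8, 19.0 and 13.1 CPM (saline) and 44.5, 49.4 and 42.8 CPM (insulin) in ERRα-/- livers. The 3 ERRα-/- insulin livers were the highest of the 15, and the WT groups overlapped. Tbc1d30 rose by 1.66 (SE 0.24) in ERRα-/- (unadjusted p = 2.54e-06), its WT effect was 0.28 (SE 0.22), and the difference was −1.37 (SE 0.33, unadjusted p = 0.000598). Dlc1 (ENSMUSG00000031523, chromosome 8, 36567751 to 36953143) was at 50.5, 54.6, 59.5 and 64.7 CPM (saline) and 48.0, 44.4, 65.2 and 59.4 CPM (insulin) in WT livers, and at 44.9, 45.3, 42.0 and 35.5 CPM after saline and 73.2, 82.0 and 67.6 CPM after insulin in ERRα-/- livers. Again the ERRα-/- insulin livers were above all others and the WT groups overlapped. For Dlc1 the effects were 0.83 (SE 0.14) in ERRα-/- and −0.08 (SE 0.13) in WT, and the difference was −0.90 (SE 0.19, unadjusted p = 0.000225). Zfp609, the exocyst subunit Exoc6b and the WASH complex subunit Washc2 differed by −1.01, −0.93 and −0.60.

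In the other direction, Plin2 encodes the coat protein of lipid droplets (ENSMUSG00000028494, chromosome 4, 86648386 to 86670060). Plin2 was at 605, 404, 591 and 424 CPM with saline and 546, 292, 580.3 and 581 CPM with insulin in WT livers, and at 900.3, 616, 776 and 744 CPM (saline) and 333, 358 and 368 CPM (insulin) in ERRα-/- livers. All ERRα-/- saline livers lay above all ERRα-/- insulin livers; the WT groups overlapped and WT insulin replicate 2 was the lowest liver in the experiment. The effect on Plin2 was −1.10 (SE 0.22) in ERRα-/- and −0.02 (SE 0.20) in WT, a difference of 1.09 (SE 0.29, unadjusted p = 0.00168), or 1.27 without WT insulin replicate 2. Pxdc1, a PX domain protein (ENSMUSG00000021411, chromosome 13, 34627834 to 34653486), was at 37.1, 31.5, 40.2 and 36.2 CPM (saline) and 42.2, 41.7, 37.9 and 35.8 CPM (insulin) in WT livers and at 46.6, 42.3, 38.5 and 53.8 CPM with saline and 31.5, 24.4 and 29.0 CPM with insulin in ERRα-/- livers. WT groups overlapped and ERRα-/- groups did not. Pxdc1 fell by 0.68 (SE 0.14) in ERRα-/- livers and differed by 0.80 (SE 0.18, unadjusted p = 0.000436). Hamp2, a hepcidin gene of the acute phase list (ENSMUSG00000056978, chromosome 7, 30922372 to 30924681), was at 0.673, 1.92, 0.937 and 2.33 CPM after saline and 1.41, 1.33, 1.46 and 2.92 CPM after insulin in WT livers, against 11.9, 5.12, 19.7 and 4.01 CPM (saline) and 2.84, 1.29 and 2.42 CPM (insulin) in ERRα-/- livers. The ERRα-/- saline livers were the 4 highest of the 15 and spread from 4.01 to 19.7 CPM. Hamp2 differed by 2.5 (SE 0.73, unadjusted p = 0.00318). Slc1a4, a neutral amino acid transporter, and Srsf3, a splicing factor, differed by 1.30 and 0.83. Cyp2b9, a cytochrome P450 with higher expression in female liver, was at 0, 0, 0.0229 and 0.0925 CPM in WT saline, 0, 0.0567, 0.263 and 0.925 CPM in WT insulin, 18.4, 0, 3.85 and 1.71 CPM in ERRα-/- saline and 0.260, 0.0549 and 0.0814 CPM in ERRα-/- insulin livers. With 18.4 CPM in ERRα-/- saline replicate 1 and values at or near 0 in most others, its fitted difference of 8.71 rests on few counts, and it was 7.03 without that liver.

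Opposite responses were called for 32 genes, and each of the 13 named ones left that class in at least 1 of the fits that follow. Wnk4, a kinase that regulates ion transport (ENSMUSG00000035112, chromosome 11, 101260567 to 101277409), was at 2.90, 3.44, 5.07 and 2.66 CPM with saline and 2.58, 1.76, 2.18 and 2.28 CPM with insulin in WT livers, and at 1.29, 1.55, 1.502 and 0.687 CPM (saline) and 2.73, 3.90 and 1.87 CPM (insulin) in ERRα-/- livers. Insulin livers were lower in WT and higher in ERRα-/-, with no overlap within a genotype. The effects of −0.68 (SE 0.31) and 1.17 (SE 0.34) differed by −1.85 (SE 0.46, unadjusted p = 0.000839). Sertad2, a transcriptional coregulator (ENSMUSG00000049800, chromosome 11, 20543253 to 20653021), was at 26.7, 32.2, 28.7 and 29.7 CPM (saline) and 24.3, 20.0, 21.6 and 16.7 CPM (insulin) in WT livers and at 19.7, 26.6, 20.6 and 18.5 CPM (saline) and 31.3, 27.1 and 24.8 CPM (insulin) in ERRα-/- livers. Its WT groups were apart and its ERRα-/- groups overlapped, since ERRα-/- saline replicate 2 was above ERRα-/- insulin replicate 4. Sertad2 had effects of −0.51 (SE 0.14) and 0.38 (SE 0.15), a difference of −0.88 (SE 0.21, unadjusted p = 0.000496). Tyw1, an enzyme of tRNA wybutosine synthesis, differed by −0.80, and Lsm7, a Sm-like protein of RNA processing, by 1.13 with a rise in WT and a fall in ERRα-/-. The acyltransferase Agpat2 and the ribosomal protein Rps13 also rose in WT and fell in ERRα-/-, with differences of 0.62 and 0.75. Eif5b, a translation initiation factor, had the reverse pattern and a difference of −0.65, or −0.45 with the length trend removed. Esrra itself stood in this class (0.67 in WT and −0.98 in ERRα-/-, where its level was near 0).

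Without WT insulin replicate 2, Wnk4, Tyw1, Abcc2, Esrra, Rps13, Eif5b and Agpat2 were called in ERRα-/- alone; the WT effect of Esrra was then 0.43 and not called. With the length trend removed, Agpat2 (0.21 in WT and −0.26 in ERRα-/-) and Eif5b (−0.18 and 0.27) were called in neither genotype, and Crip2, Rps13 and Abcc2 in ERRα-/- alone. Crip2 had effects of 0.28 and −0.89 in that fit. With the GC trend removed as well, Mia3 was called in WT alone and Wnk4, Crip2 and Rps13 in ERRα-/- alone. Bet1l, Sf3b5, Sertad2 and Lsm7 stayed opposite in these 3 fits and with the length trend removed without WT insulin replicate 2. Of the 15 leave-one-out fits, Lsm7 stayed opposite in 14, Crip2 and Esrra in 13, Bet1l, Sertad2, Tyw1 and Abcc2 in 12, Sf3b5 and Agpat2 in 11, Wnk4 in 10, Eif5b in 8, Rps13 in 6 and Mia3 in 5. Other named genes became opposite in 1 or more of these fits: Zfp609, Cyp2b9, Srsf3, Foxo3 and Mki67, called in ERRα-/- alone with all livers, and Ciao2a, Pck1, Pfkfb3, Atp5e, Rps14, Fau, Apoc2, Hilpda, Atf5, Fos and Cyp4v3, called in WT alone.

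Calls of a difference in the lists below can be read against 4.75% positive and 4.04% negative among all tested genes, and calls of the insulin effect against 9.52% higher and 9.74% lower in WT and 6.58% higher and 7.28% lower in ERRα-/-. Several lists held genes called higher with insulin in WT liver and few in ERRα-/- liver, where the group had 3 livers in place of 4: complex I had 10 of 37 in WT and 0 in ERRα-/-, ATP synthase 8 of 17 and 0, the mitochondrial ribosome 19 of 76 and 0, and the cytosolic ribosome 20 of 77 and 1. Here and in the lists below, counts of positive and negative genes are of called genes. Of the 37 complex I genes 4 (10.8%) were positive and 0 negative, and 34 differences were above 0. The medians were 0.26 in WT and −0.05 in ERRα-/- for the insulin effect and 0.32 for the difference. The median difference over all genes tested was 0.02, with 7603 of 14670 above 0. For complexes II to IV 24 of 25 differences were above 0, and for ATP synthase 17 of 17. Complexes II to IV had 10 positive of 25 (median difference 0.43), and insulin was called higher for 16 of the 25 in WT and for 0 in ERRα-/-. ATP synthase had 8 positive of 17 (47.1%, median 0.46). The leave-one-out fits gave 1 to 9, 4 to 14 and 4 to 10 called genes in these groups, lowest without ERRα-/- insulin replicate 2 in each and highest without WT insulin replicate 3, WT insulin replicate 3 and WT saline replicate 1. Without WT insulin replicate 2 complex I had 2, and without WT saline replicate 2 it had 1 and complexes II to IV had 6. With the length trend removed 2, 5 and 6 genes were called and the medians were 0.16, 0.20 and 0.28; with WT insulin replicate 2 left out as well, the medians were 0.10, 0.17 and 0.23. By contrast, 0 of 12 genes of the mitochondrial genome were called (median −0.28); without WT insulin replicate 2, the library with 1.88% of its counts there, the median was −0.13, and with the length trend removed 3 genes were negative (median −0.49).

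Usmg5, a small subunit of ATP synthase (ENSMUSG00000071528, chromosome 19, 47083464 to 47090647), was at 19.6, 18.3, 21.2 and 20.5 CPM with saline and 33.9, 41.1, 26.4 and 30.5 CPM with insulin in WT livers, and at 16.3, 20.0, 16.0 and 21.8 CPM (saline) and 17.9, 14.2 and 20.5 CPM (insulin) in ERRα-/- livers. The WT insulin livers lay above the other 11, with replicate 2 the highest, and the ERRα-/- groups overlapped. Usmg5 rose by 0.73 (SE 0.15) in WT against −0.08 (SE 0.17) in ERRα-/-, and the difference was 0.81 (SE 0.23, unadjusted p = 0.00235), or 0.61 with that library left out and the length trend removed. Cox4i1 of complex IV, Ndufc1 of complex I and the ATP synthase subunits Atp5e and Atp5g1 differed by 0.60 (0.39 with the length trend removed), 0.69, 0.83 and 0.61. Cox8a and Cox7a2l of complex IV, with differences of 0.57 and 0.48, were not called with the length trend removed (0.33 and 0.26).

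Sdhd encodes a membrane anchor subunit of succinate dehydrogenase, complex II (ENSMUSG00000000171, chromosome 9, 50596357 to 50603812). Its promoter is shown because it is one of the few among the named genes that hold the ERR response element TNAAGGTCA, here in capitals and on the opposite strand, as TGACCTTGA, 36 to 44 bases after the annotated start. The sequence is from RefSeq, GRCm38.p6, minus strand, chr9:50603800-50604099, 5′ to 3′.

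Sdhd promoter: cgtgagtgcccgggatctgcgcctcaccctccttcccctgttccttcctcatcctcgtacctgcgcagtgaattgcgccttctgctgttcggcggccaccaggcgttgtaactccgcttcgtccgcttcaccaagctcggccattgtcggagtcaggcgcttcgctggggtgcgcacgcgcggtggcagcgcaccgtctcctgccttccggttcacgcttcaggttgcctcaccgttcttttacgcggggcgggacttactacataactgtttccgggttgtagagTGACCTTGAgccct

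Sdhd was at 119, 118, 144 and 141 CPM with saline and 157, 234, 159 and 158 CPM with insulin in WT livers, and at 99.5, 94.2, 87.8 and 101 CPM (saline) and 93.7, 76.4 and 88.9 CPM (insulin) in ERRα-/- livers. WT insulin livers lay above WT saline livers, WT insulin replicate 2 far above the other 3, and each ERRα-/- liver was below each WT liver. The effects of 0.44 (SE 0.13) in WT and −0.15 (SE 0.14) in ERRα-/- differed by 0.58 (SE 0.20, unadjusted p = 0.00839). Without WT insulin replicate 2 the difference was 0.42, and with the length trend removed as well it was 0.26 and no longer called (unadjusted p = 0.0803).

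Protein import had 7 positive of 28 genes tested (25%) and 0 negative (median difference 0.30; 0.26 with the length trend removed, 5 called). Timm17a, a channel component of the TIM23 inner membrane translocase (ENSMUSG00000062580, chromosome 1, 135295213 to 135313778), was at 18.2, 21.0, 20.8 and 19.9 CPM with saline and 27.9, 30.2, 29.4 and 36.6 CPM with insulin in WT livers, and at 18.4, 23.4, 16.1 and 19.7 CPM (saline) and 19.4, 18.7 and 20.1 CPM (insulin) in ERRα-/- livers. WT insulin livers were the 4 highest of the 15 and the ERRα-/- groups overlapped. Timm17a rose by 0.63 (SE 0.13) in WT and its ERRα-/- effect was 0.00 (SE 0.14), a difference of 0.63 (SE 0.18, unadjusted p = 0.00331) that was 0.78 with the length trend removed. Grpel1, the nucleotide exchange factor of the matrix chaperone that pulls precursors in (ENSMUSG00000029198, chromosome 5, 36464998 to 36474080), was at 79.1, 81.0, 86.9 and 76.1 CPM (saline) and 128, 142, 101 and 121 CPM (insulin) in WT and at 90.1, 86.6, 89.3 and 90.0 CPM (saline) and 96.4, 88.2 and 96.7 CPM (insulin) in ERRα-/- livers. Its WT insulin livers were again the 4 highest. Grpel1 differed by 0.53 (SE 0.15, unadjusted p = 0.0027). Timm23 and Tomm5, of the inner and outer membrane translocases, differed by 0.53 (0.34 with the length trend removed) and 0.99. The mitochondrial carriers had 5 positive (13.2%) and 1 negative of 38 (median 0.12), among them Slc25a47, the phosphate carrier Slc25a3 (0.46) and the pyrimidine nucleotide carrier Slc25a33 (0.56), and the dynamics and quality control list had 1 positive of 30 (3.33%, under the 4.75% of all genes; median 0.07), the prohibitin Phb2 (0.41).

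In the mitochondrial ribosome 19 of 76 genes (25%) were positive and 0 negative (median 0.31; 0.20 with the length trend removed), 6 without ERRα-/- insulin replicate 2, 11 without WT insulin replicate 2 and 6 with the length trend removed. Mrpl17 and Mrpl20, of its large subunit, differed by 0.56 and 0.58. TCA cycle genes had 1 positive of 15 (median 0.19), and 0 without WT insulin replicate 2 (median 0.11, or 0.08 with the length trend removed as well). In the list of ERR and PGC-1 family genes 2 of 18 were positive (median 0.08), Esrra and Perm1. Esrra is the gene deleted in ERRα-/- mice, so its call does not describe a response that depends on the receptor. Perm1, an ERR-induced regulator in muscle, was at 0 CPM in all 4 WT saline livers and at 0.505, 0, 0.789 and 0.0949 CPM in WT insulin livers, and at 0.315, 0, 0.218 and 0.310 CPM (saline) and 0.156, 0 and 0 CPM (insulin) in ERRα-/- livers, so no fold is given.

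Ribosomal protein genes had mostly positive differences. Of 77 cytosolic ribosomal protein genes 23 (29.9%) were positive and 1 negative, Rpl35, named after its values were seen; the medians were 0.23 in WT, −0.15 in ERRα-/- and 0.40 for the difference. The median difference was 0.26 without WT insulin replicate 2 and 0.15 with the length trend removed as well. Besides Rpl36 and Rps13, Fau and Rps14 of the small subunit differed by 0.63 (0.38 with the length trend removed) and 0.79. These transcripts are short (median exonic length 1781 bases), and with the length trend removed 14 were positive with a median difference of 0.23 and a WT median of 0.11. The leave-one-out fits gave 10 to 47 positive genes, lowest without ERRα-/- insulin replicate 2 and highest without WT insulin replicate 3; there were 12 without ERRα-/- saline replicate 4 or WT saline replicate 2, 13 without WT insulin replicate 2, 35 without WT saline replicate 1 and 37 without ERRα-/- saline replicate 2. Ribosome biogenesis factors did not share the direction, with 2 positive and 2 negative of 35 (median −0.07); Ppan, a factor of large subunit assembly, differed by 0.75. Initiation and elongation factors had 6 positive and 3 negative of 44 (median 0.12), and 4 and 4 without WT insulin replicate 2 (median 0.04), with Eif1a at 0.73 and Eif4b, a cofactor of the eIF4A helicase, at −0.47. Proteasome subunits had 0 of 32 called (median 0.16; 0.04 with the length trend removed).

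The list of gluconeogenesis and FoxO action held negative calls of the difference alone. Of its 23 genes 0 were positive and 5 negative (21.7%, against 4.04% of all genes). Insulin was called higher for 8 of the 23 and lower for 3 in WT (9.52% and 9.74% among all genes). In ERRα-/- it was called higher for 9 and lower for 1 (6.58% and 7.28%). Median insulin effects were 0.01 in WT and 0.41 in ERRα-/-, and the median difference was −0.17 (−0.29 without WT insulin replicate 2). The negative count was 3 without ERRα-/- insulin replicate 2, 7 without WT insulin replicate 3 and 4 with the length trend removed. Pck1, the cytosolic phosphoenolpyruvate carboxykinase (ENSMUSG00000027513, chromosome 2, 173153048 to 173159273), was at 4619, 3728, 4290.3 and 4513 CPM with saline and 2606, 3923, 3062 and 2974 CPM with insulin in WT livers, and at 4340.4, 4331, 5206 and 4266 CPM (saline) and 5309, 5140.0 and 5690.1 CPM (insulin) in ERRα-/- livers. WT insulin replicates 1, 3 and 4 lay below each WT saline liver and replicate 2 within their range, while the ERRα-/- groups overlapped. The difference for Pck1 was −0.82 without WT insulin replicate 2 and −0.69 (SE 0.20, unadjusted p = 0.00265) with it. Foxo3, a FoxO transcription factor (ENSMUSG00000048756, chromosome 10, 42181841 to 42276755), was at 87.7, 106, 90.4 and 106 CPM (saline) and 106, 76.3, 61.1 and 57.8 CPM (insulin) in WT livers and at 78.7, 79.8, 92.3 and 58.4 CPM after saline and 93.3, 155 and 107 CPM after insulin in ERRα-/- livers. The ERRα-/- insulin livers lay above the ERRα-/- saline livers, and WT insulin replicate 1 reached the WT saline range. Foxo3 had effects of −0.37 (SE 0.19) in WT and 0.61 (SE 0.21) in ERRα-/-, a difference of −0.98 (SE 0.28, unadjusted p = 0.00302). Sesn1, a stress-induced FoxO target that restrains mTORC1, rose in both genotypes, by 0.78 (SE 0.23) in WT and 1.72 (SE 0.25) in ERRα-/-; its difference of −0.93 (SE 0.34, unadjusted p = 0.0145) was −0.69 and not called without ERRα-/- insulin replicate 2.

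Carbohydrate and lipid enzymes were split. Glycolysis and glucose uptake had 2 positive and 1 negative of 26 (median 0.10), with the fructose-metabolising kinase Khk at 0.71; Pfkfb3, which makes the activator of phosphofructokinase, had −1.93, which was −1.03 and not called without ERRα-/- insulin replicate 2. Glycogen metabolism had 2 negative of 16 (median −0.12; −0.04 with the length trend removed), with the phosphorylase kinase subunit Phka2 at −0.51. Lipogenesis had 3 positive of 24 (median 0.09), Agpat2 among them. Cholesterol synthesis had 0 of 26 called, although 24 of the 26 differences were above 0: insulin was called lower for 6 genes and higher for 4 in WT (median −0.31; 9.74% lower and 9.52% higher among all genes), and lower for 10 and higher for 3 in ERRα-/- (median −0.64; 7.28% and 6.58%), with a median difference of 0.24. Lipoprotein and lipid droplet genes had 6 positive and 1 negative of 26 (median 0.22; 0.06 with the length trend removed). Besides Plin2, the positive genes included Apoc2, the activator of lipoprotein lipase (0.75), and Hilpda, an inhibitor of adipose triglyceride lipase (2.20), and the negative one was hormone-sensitive lipase, Lipe (−0.65), which rose in ERRα-/- liver alone. Fatty acid oxidation and ketogenesis had 2 positive of 27 (median 0.20; 0.11 with the length trend removed) and PPARα targets 1 positive, Slc25a47, and 1 negative, the fatty acid hydroxylase Cyp4a31 (−1.09), of 19 (median 0.37).

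Bile acid genes had 0 positive and 3 negative of 24, with median insulin effects of −0.26 in WT and 0.09 in ERRα-/-; 5 were negative with the length trend removed, 2 without ERRα-/- insulin replicate 2 and 7 without ERRα-/- saline replicate 2. The list's median difference was −0.24 in both fits. Abcc2, the export pump of the canalicular membrane (ENSMUSG00000025194, chromosome 19, 43782192 to 43840740), was at 774, 944, 853 and 759 CPM with saline and 618, 557, 718 and 654 CPM with insulin in WT livers, and at 784, 844, 583 and 478 CPM (saline) and 931, 982 and 854 CPM (insulin) in ERRα-/- livers. Insulin livers were lower in WT and higher in ERRα-/-, with no overlap in either. The effects on Abcc2 of −0.39 (SE 0.16) and 0.46 (SE 0.17) differed by −0.84 (SE 0.23, unadjusted p = 0.00192). Nr5a2, the nuclear receptor LRH-1, which activates bile acid synthesis genes (ENSMUSG00000026398, chromosome 1, 136842571 to 136960448), was at 85.6, 82.9, 80.4 and 82.4 CPM (saline) and 40.5, 48.8, 47.4 and 45.1 CPM (insulin) in WT and at 75.6, 74.0, 78.7 and 78.3 CPM (saline) and 67.3, 60.1 and 52.3 CPM (insulin) in ERRα-/- livers. Insulin livers were lower in both genotypes without overlap, and the fall was larger in WT. Nr5a2 had effects of −0.87 (SE 0.10) in WT and −0.36 (SE 0.10) in ERRα-/-, a difference of −0.51 (SE 0.14, unadjusted p = 0.00218). Cyp7b1, the oxysterol 7α-hydroxylase of the alternative pathway, was at 381, 347, 222 and 189 CPM (saline) and 492, 448, 169.8 and 170.2 CPM (insulin) in WT and at 78.8, 222, 105 and 79.6 CPM (saline) and 247, 561 and 386 CPM (insulin) in ERRα-/- livers. The WT groups overlapped widely and the ERRα-/- groups did not. Cyp7b1 rose in ERRα-/- alone, and its difference of −1.54 (SE 0.58, unadjusted p = 0.0171) was −1.21 and not called without ERRα-/- insulin replicate 2.

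Cytochrome P450 genes had 2 positive and 6 negative of 39 (median −0.23; 8 negative with the length trend removed). The 6 became 2 without ERRα-/- insulin replicate 2 and 8 without ERRα-/- saline replicate 1. Cyp26a1, which degrades retinoic acid, had 1.35 and Cyp4v3, a fatty acid hydroxylase, −0.56. The list of growth hormone and sex-biased genes had 1 positive and 2 negative of 18 (median −0.38), with 6 negative without ERRα-/- saline replicate 2 and 0 without ERRα-/- saline replicate 4.

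Cdkn1a, the cyclin-dependent kinase inhibitor p21 (ENSMUSG00000023067, chromosome 17, 29090976 to 29100727), was at 10.5, 27.5, 22.6 and 6.77 CPM with saline and 268, 117, 142 and 192 CPM with insulin in WT livers, and at 68.1, 24.1, 91.1 and 39.3 CPM (saline) and 94.2, 145 and 133 CPM (insulin) in ERRα-/- livers. Insulin livers were above saline livers in both genotypes without overlap, and ERRα-/- saline livers reached 91.1 CPM where WT saline livers reached 27.5. Cdkn1a rose by 3.42 (SE 0.45) in WT and 1.16 (SE 0.44) in ERRα-/-, a difference of 2.26 (SE 0.62, unadjusted p = 0.00202). Gadd45g, a growth arrest gene (ENSMUSG00000021453, chromosome 13, 51846678 to 51848468), was at 4.87, 6.71, 4.43 and 2.73 CPM (saline) and 20.5, 54.9, 9.80 and 23.4 CPM (insulin) in WT and at 35.7, 10.6, 22.7 and 16.4 CPM (saline) and 20.8, 31.3 and 27.3 CPM (insulin) in ERRα-/- livers. WT insulin livers were above WT saline livers, replicate 2 the highest, and the ERRα-/- groups overlapped at levels above those of WT saline. For Gadd45g the difference was 2.23 (SE 0.64, unadjusted p = 0.00275), and 1.63 without that liver. Immediate early genes, with Gadd45g among them, had 4 positive of 25 (median difference 0.65, 0.51 with the length trend removed), 2 without ERRα-/- insulin replicate 1 and 6 without WT insulin replicate 2 or replicate 3; Fos differed by 2.80, and by 4.43 without ERRα-/- insulin replicate 2.

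The integrated stress response had 2 positive and 1 negative of 25, with a median of 0.20 that was 0.11 with the length trend removed, 0.03 without WT insulin replicate 2 and 0.00 with both; in it were Chac1, which cleaves glutathione, at 2.39 and the transcription factor Atf5 at 0.57. Endoplasmic reticulum stress genes had 3 positive of 25 (median 0.33; 1 called with the length trend removed), and the co-chaperone Dnajb9 had 1.03, or 0.61 without ERRα-/- saline replicate 1. Antioxidant genes had 3 positive and 2 negative of 27 (median 0.20; 0.06 with the length trend removed), with the lipid hydroperoxidase Gpx4 at 0.55 (0.36 with the trend removed); Nfe2l2, which encodes NRF2, had −0.39, and −0.32 with no call without ERRα-/- insulin replicate 1. Heat shock genes had 0 of 17 called (median −0.08), amino acid and urea cycle genes 0 of 48 (median 0.01), and cell cycle genes 2 positive and 1 negative of 28 (median 0.07), the negative one being Mki67, a proliferation marker (−1.45). Acute phase genes had 2 positive of 26 (median 0.45), and insulin was called lower for 7 of them and higher for 0 in ERRα-/- (median −0.58; 7.28% and 6.58% among all genes), and lower for 1 and higher for 1 in WT (median −0.08; 9.74% and 9.52%).

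Interferon-stimulated genes had 1 positive of 51, Bst2 (0.52, not called with the length trend removed, 0.26), and insulin was called lower for 14 of them and higher for 2 in WT (9.74% and 9.52% among all genes), and lower for 20 and higher for 0 in ERRα-/- (7.28% and 6.58%), with a median difference of 0.15, or 0.26 without WT insulin replicate 2. Lysosome and autophagy genes had 3 positive and 3 negative of 30 (median 0.13), 1 and 1 without ERRα-/- insulin replicate 2: Npc1, which exports cholesterol from the lysosome, had −0.82 and Map1lc3b, the autophagosome protein LC3B, 0.45.

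Medians of other lists also moved without WT insulin replicate 2: antioxidant genes to 0.10, proteasome subunits to 0.08, lysosome and autophagy genes to 0.06, mitochondrial carriers to 0.08, dynamics and quality control to 0.00, lipogenesis to 0.15, ERR and PGC-1 family genes to 0.14 and cytochrome P450 genes to −0.15. Those of cell cycle, glucocorticoid and amino acid genes changed sign, as the closing section states.

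Several lists held so few calls that leaving out 1 liver changed their counts by more than 1.5 fold. Positive interferon-stimulated genes went from 1 to 5 without ERRα-/- insulin replicate 4, and negative ones from 0 to 3 without WT insulin replicate 4. PPARα targets went from 1 to 4 positive without WT insulin replicate 2 and from 1 to 3 negative without ERRα-/- saline replicate 1, and negative amino acid and urea cycle genes from 0 to 4 without ERRα-/- saline replicate 3. Negative clock genes numbered 5 without WT insulin replicate 1. Fatty acid oxidation had 0 positive genes, and endoplasmic reticulum stress and antioxidant genes 1 each, without ERRα-/- insulin replicate 2, which also took the translation factors to 3, and the negative ribosome biogenesis, glycolysis and integrated stress response genes to 0. Endoplasmic reticulum stress had 5 without WT insulin replicate 3. Without ERRα-/- insulin replicate 1, negative glycogen genes and positive ribosome biogenesis, cell cycle and glucocorticoid genes went from 2 to 1 in each list. Positive glycolysis genes numbered 1 without ERRα-/- saline replicate 4. The fit without ERRα-/- insulin replicate 1 also changed other lists: lipogenesis had 1 positive gene, the TCA cycle 0, the acute phase 1, and the antioxidant list 0 negative. Positive acute phase genes numbered 4 without ERRα-/- saline replicate 2, and positive glucocorticoid targets 4 and positive carriers 3 without ERRα-/- saline replicate 4. Proteasome subunits had 2 positive and the glucocorticoid list 2 negative genes without WT insulin replicate 1, glycolysis 3 negative without WT insulin replicate 2, and the mitochondrial genome 2 negative without WT insulin replicate 4.

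The list of circadian clock and output genes had 0 positive and 2 negative of 21 (median −0.23), and 4 negative without WT insulin replicate 2 (median −0.14). Per3, a period gene (ENSMUSG00000028957, chromosome 4, 151003652 to 151044665), was at 10.8, 11.7, 5.48 and 20.5 CPM with saline and 1.91, 2.75, 1.94 and 1.11 CPM with insulin in WT livers, and at 3.62, 4.51, 3.02 and 5.23 CPM (saline) and 2.63, 1.51 and 2.01 CPM (insulin) in ERRα-/- livers. Insulin livers were lower in both genotypes without overlap, and the WT saline livers were the 4 highest of the 15. Per3 had effects of −2.66 (SE 0.36) in WT and −1.0 (SE 0.38) in ERRα-/-, a difference of −1.66 (SE 0.50, unadjusted p = 0.00439). Tef, a clock-controlled transcription factor, differed by −0.75.

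Glucocorticoid targets had 2 positive and 1 negative of 16, with large median insulin effects in both genotypes (0.86 in WT and 0.44 in ERRα-/-) and a median difference of 0.01. Sgk1, a serum- and glucocorticoid-induced kinase (ENSMUSG00000019970, chromosome 10, 21882184 to 21999903), is shown with its promoter for the same reason as Sdhd: TNAAGGTCA stands on the opposite strand, as TGACCTTGA in capitals, from 63 to 55 bases before the start of 1 of its 6 annotated promoters (RefSeq, GRCm38.p6, plus strand, chr10:21978422-21978721).

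Sgk1 promoter: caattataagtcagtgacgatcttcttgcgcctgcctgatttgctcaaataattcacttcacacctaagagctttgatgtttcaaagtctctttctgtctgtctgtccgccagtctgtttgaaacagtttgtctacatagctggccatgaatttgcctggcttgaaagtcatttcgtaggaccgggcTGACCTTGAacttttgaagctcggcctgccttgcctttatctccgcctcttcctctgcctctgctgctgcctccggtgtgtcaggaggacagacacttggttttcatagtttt

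Sgk1 was at 14.8, 13.7, 17.9 and 19.9 CPM with saline and 28.9, 32.7, 15.9 and 19.2 CPM with insulin in WT livers, and at 18.5, 22.7, 78.6 and 23.1 CPM (saline) and 12.6, 31.3 and 17.1 CPM (insulin) in ERRα-/- livers. The groups overlapped in both genotypes and ERRα-/- saline replicate 3, at 78.6 CPM, stood apart. Its difference was 1.36 (SE 0.59, unadjusted p = 0.0333), and the call was lost without ERRα-/- insulin replicate 1 or 4, ERRα-/- saline replicate 3, WT insulin replicate 1 or 2 or WT saline replicate 1 or 2, where it ran from 0.62 (ERRα-/- saline replicate 3) to 1.32 (WT saline replicate 1).

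**Figure D4:**
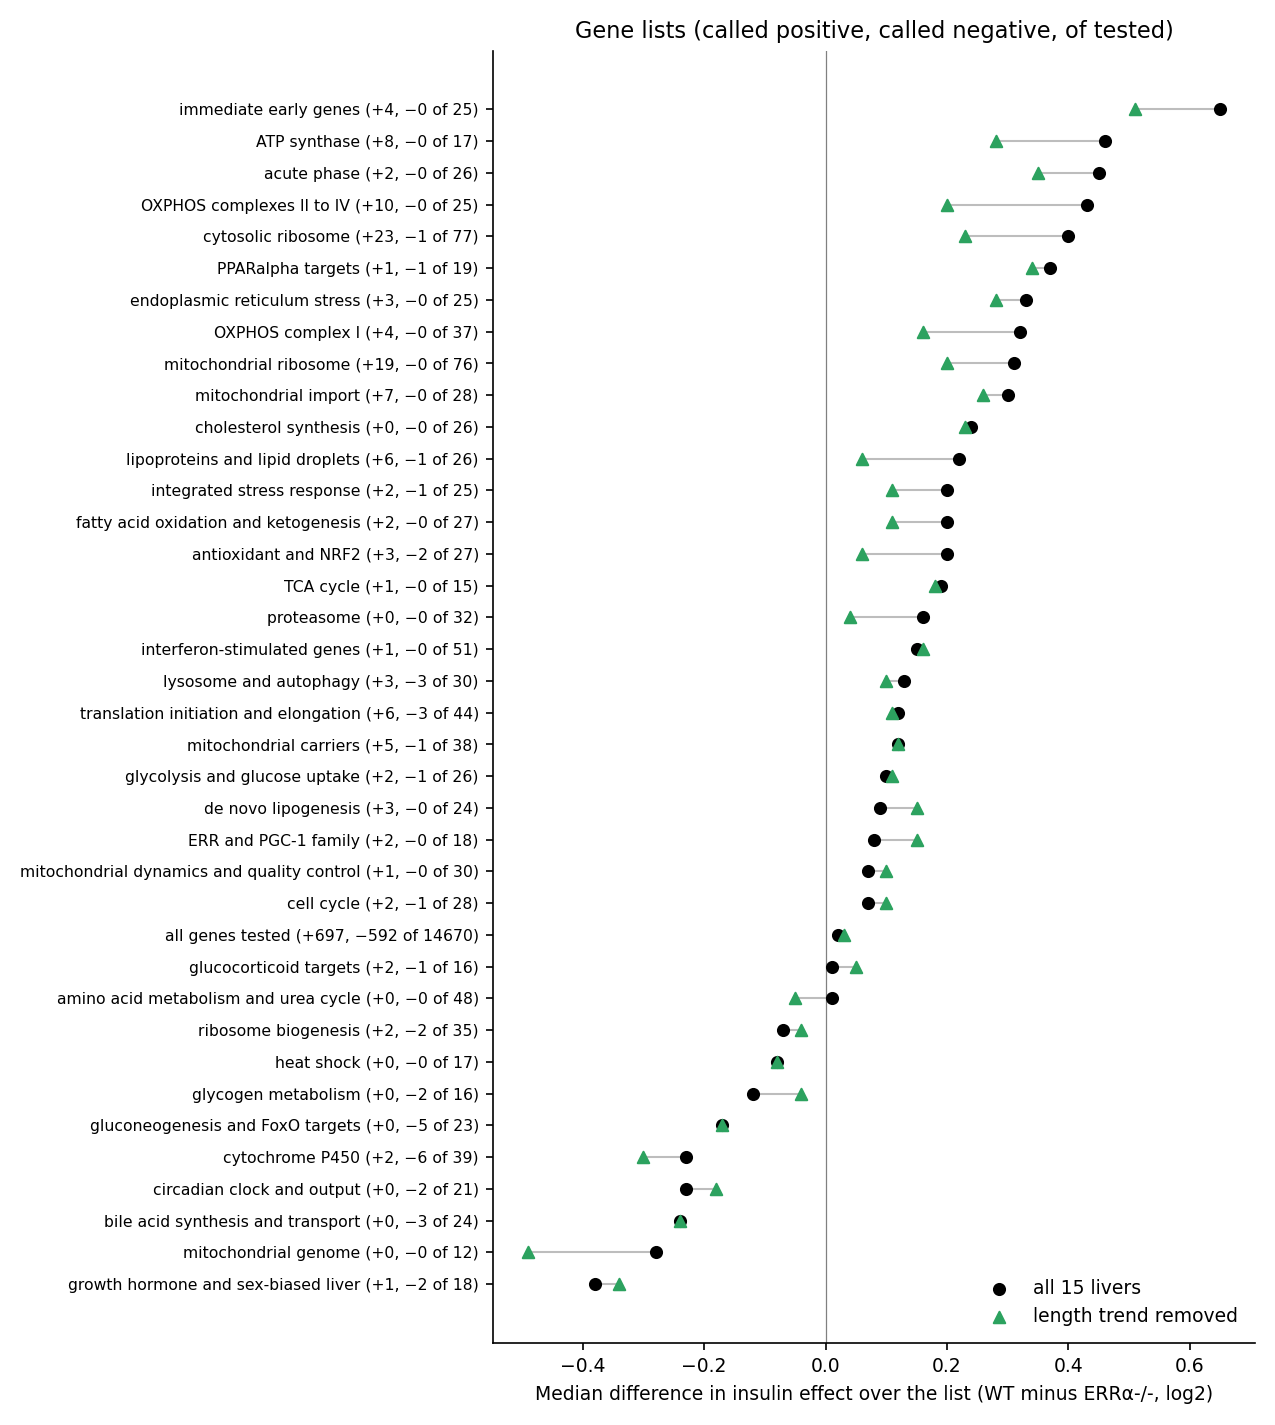
Median difference in insulin effect (WT minus ERRα-/-, log2) over the genes of each list, with all 15 livers (circles) and with the length trend removed (triangles), and the number of genes called positive and negative of those tested. ATP synthase and complexes II to IV lie at 0.46 and 0.43 with all livers, and at 0.28 and 0.20 with the trend removed.

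With the length trend removed, the differences of the genes described liver by liver kept their sign and their call. Those of positive sign were Crip2 1.17, Slc25a47 0.88, Plin2 1.05, Pxdc1 0.71, Hamp2 2.25, Usmg5 0.70, Sdhd 0.35, Grpel1 0.49, Cdkn1a 2.22, Gadd45g 1.91 and Sgk1 1.40. Those of negative sign were Stk35 −0.69, Bicral −0.96, Mia3 −0.76, Tbc1d30 −1.24, Dlc1 −0.65, Wnk4 −1.85, Sertad2 −0.78, Pck1 −0.75, Foxo3 −0.84, Abcc2 −0.69, Nr5a2 −0.42, Cyp7b1 −1.71 and Per3 −1.45.

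Promoter motifs were searched on both strands in RefSeq promoters from 250 bases before to 50 after the start, of which 14010 belonged to 10967 tested genes; 538 positive and 452 negative genes had one. The ERR response element TNAAGGTCA was found for 1.01% of all tested genes with a promoter, 1.49% of the positive and 1.99% of the negative genes. Its shorter core AAGGTCA, which is part of the longer motif, was found for 4.19%, 5.95% and 4.42%. The forkhead motif GTAAACA gave 3.24%, 2.04% and 3.54%, the cAMP response element TGACGTCA 3.41%, 4.28% and 2.21%, and the core of the interferon response element 3.82%, 4.46% and 4.42%. A match describes the letters alone, and this window does not cover enhancers.

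Markers of other liver cells were looked at because a bulk sample cannot tell fewer cells of a type from less RNA per cell. Of 12 Kupffer cell and macrophage markers 2 were negative, Marco and Csf1r (median −0.30); their sum ran from 227 to 457.5 CPM with Clec4f the most abundant. The stellate cell list had 1 negative of 9, Lrat (median −0.26), and the B cell list 1 positive of 6, Igkc (median 0.35). These 4 genes were named after their values were seen. They are not the only calls, since a further marker list, of a cell type not described here, had 2 negative of 7 (median −0.55). None was called of 9 endothelial (median −0.18), 7 cholangiocyte (−0.42), 6 T and NK cell (1.36), 5 neutrophil (2.01) and 4 adipocyte (−0.03) genes tested, of which the T and NK cell, neutrophil and adipocyte sums stayed at or under 13.8 CPM in each liver. The part of these cells in the interaction was not tested.

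Livers that the interaction did not use came from mice whose ERRα carries 3 serine-to-alanine changes (ERRα3SA, 4 livers) and from WT littermates (4 livers). These mice were on a normal diet, and their livers have no saline and insulin groups. The comparison is thus between genotypes and does not measure a difference in insulin response. In that comparison 333 of 13339 genes were higher (2.5%) and 318 lower (2.38%). Of the positive interaction genes 640 were tested there, and 14 (2.19%) were higher and 16 (2.5%) lower, with a median of −0.03. Of the negative ones 565 were tested, and 16 (2.83%) were higher and 8 (1.42%) lower, with a median of 0.03. Over the 12804 genes tested in both experiments the shares were 2.48% and 2.25%, so the shares of interaction genes were near the background. The 16 positive genes lower there became 28 without ERRα3SA replicate 1 and 10 without WT littermate replicate 1, and the 8 negative genes lower there became 13 without ERRα3SA replicate 2 and 17 without ERRα3SA replicate 4.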

How the data were processed

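The authors deposited raw read counts per Ensembl gene for each liver; the submitters' notes name STAR and the mm10 genome. The members, gene lists and motifs were chosen with earlier results of these data known. Of the 31 samples, the 15 livers of the insulin table were fitted together, and 8 ERRα3SA and WT littermate livers apart; 8 columns of per-sample values of other samples were not used. edgeR 4.0.16 (R 4.3.3, limma 3.58.1) fitted 4 group means with TMM factors and filterByExpr, and quasi-likelihood F-tests gave the insulin effect in each genotype and their difference, with Benjamini-Hochberg adjustment over all 14670 genes tested (of 35275; 97.8% have a symbol). A call needs an unadjusted p under 0.05 and 1.2 fold. CPM use TMM-scaled library sizes; log2 CPM used a prior count of 2. The fit was tested on simulated data.

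Named genes have a symbol that is not a clone or predicted name. Of those with a mean of at least 1 CPM that were called in all 15 livers and in each fit leaving out 1 liver, the 8 with the lowest p in each direction were taken, and the 5 in each direction among genes called in ERRα-/- alone and among opposite genes. Up to 4 called members of each gene list with the lowest p, and Esrra, were added. Positions are from GENCODE vM21. Alternatives were DESeq2 1.42.0 on all genes with a count, RLE and upper quartile factors, no filter, a mean of at least 1 CPM, a replicate block, and leaving out each liver. Removal of a lowess trend (span 0.3) over exonic length, alone, with GC content or with WT insulin replicate 2 left out, was added after the data were seen.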

Additional observations from a re-analysis of the deposited data

Results flagged for a closer look

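In each value given here 1 liver lay far from the rest of its group: its gap to the nearest other liver, as a share of the whole range, was above Dixon's critical value for 4 samples. Chance alone gives this in about 1 of 20 groups, the group of 3 ERRα-/- insulin livers was not tested, and the cause was not tested for any of them.

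WT insulin replicate 2 stood apart for 7 values. It had 1.88% of its counts on the mitochondrial genome, where the other 3 WT insulin livers had 3.88 to 4.17%. On the log2 CPM scale Esrra was at 6.59 (others 5.75 to 5.88), Sdhd at 7.87 (7.30 to 7.31), Cox7a2l at 6.54 (6.00 to 6.09) and Gpx4 at 8.02 (7.47 to 7.54), all higher, while Plin2 at 8.19 (9.09 to 9.18) and Cyp4v3 at 8.47 (8.80 to 8.86) were lower.

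Other WT livers gave single values. WT insulin replicate 1 had Slc25a47 at 10.18 log2 CPM (others 10.46 to 10.50) and a cholangiocyte marker sum of 42.9 CPM (others at most 26.07). Skeletal muscle markers summed to 108 CPM in WT insulin replicate 3, against 1.07 to 4.04 CPM in the others. Hamp2 was at 1.57 log2 CPM in WT insulin replicate 4 (0.47 to 0.59), and Dapk1 at 6.01 in WT saline replicate 1 (6.17 to 6.19).

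Among ERRα-/- saline livers, replicate 3 had 3.91% of its counts on the mitochondrial genome (others 3.16 to 3.21%), a B cell marker sum of 14.5 CPM (8.10 to 8.78), Slc25a47 at 9.44 log2 CPM (others at least 9.91), Slc1a4 at 3.80 (3.00 to 3.13), Pck1 at 12.35 (12.06 to 12.08) and Sgk1 at 6.30 (4.21 to 4.53). Replicate 4 had Bicral at 4.08 (4.48 to 4.54) and Ndufc1 at 3.54 (2.97 to 3.06). Replicate 2 had Atp5g1 at 5.42 (5.36 to 5.37), Map1lc3b at 7.26 (7.67 to 7.70) and Perm1 at −4.32 (−1.90 to −1.45), where the lowest values stand for no or few counts.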

How the results depend on the processing

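No gene named in the text reversed the sign of its difference while called. List medians near 0 changed sign: without WT insulin replicate 2, cell cycle genes went from 0.07 to −0.08, glucocorticoid targets from 0.01 to −0.08 and amino acid and urea cycle genes from 0.01 to −0.10, the last to −0.05 with the length trend removed, and proteasome subunits went from 0.16 to −0.01 with both changes. Of the 116 genes that the rule names, DESeq2 kept the call for 114, RLE factors for 116, upper quartile factors for 113, no filter for 111, a replicate block for 110, removal of the length trend for 100, of the length and GC trends for 100, and of the length trend with WT insulin replicate 2 left out for 94; with a mean of at least 1 CPM, 113 kept it and 2 lost it. Of the 116, 27 were named by a rule that asked for the call in each leave-one-out fit; of the other 89, named from gene lists, between 60 and 83 kept it in the leave-one-out fits and 52 in each of them.

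The count of interaction genes (1289) was 295 at an unadjusted p under 0.01, with 154 positive and 141 negative, and 0 at an adjusted p under 0.05 by edgeR, with 0 positive and 0 negative, beside 1289 at an unadjusted p under 0.05 and 20 at an adjusted p under 0.05 by DESeq2. With a replicate block it was 1246 (639 positive, 607 negative; 512 called in WT alone, 372 in ERRα-/- alone, 40 opposite), and 0 had an adjusted p under 0.05; livers that share a replicate number share no other label, and their residual correlations ran from −0.082 to 0.223. In the leave-one-out fits the calls ran from 886 to 1569, the positive genes from 496 to 794 and the negative ones from 390 to 775, genes called in WT alone from 435 to 824, in ERRα-/- alone from 235 to 476 and opposite from 17 to 46. In the ERRα3SA livers the positive genes lower there ran from 10 to 28 and the negative genes lower there from 6 to 17. The cause was not tested. The alternatives with length and GC trends were chosen after the data were seen; length and GC together gave 1060 calls (632 positive, 428 negative), and the length trend removed without WT insulin replicate 2 gave 1131 (658 positive, 473 negative).

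Limits: groups held 3 or 4 livers. No gene passed the adjusted threshold by edgeR, so single genes rest on unadjusted p. The classes compare calls in groups of unequal number, and only the difference was tested for dependence on genotype. Exonic length was examined by removing its trend, in fits chosen after the data were seen. For groups of short transcripts, the trend and a change of the group cannot be told apart. The pancreas and muscle transcripts of single libraries were measured beside the results, and their part in them was not tested. At depths from 35871419 to 48317108 counts, genes under about 1 CPM carry few counts, and their fold changes depend on the prior count. A single time after injection was sampled.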
